A study of Mus musculus with 14 samples.

Results

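Sarcomere and Z-disc genes, a set of 39 genes whose products build or maintain the contractile apparatus of striated muscle, were followed in the epicardium and subepicardium of the fetal mouse heart. Members were chosen by gene symbol from a fixed list, and all 39 were found among the 15894 genes of the deposited table. They comprised 6 thick filament genes, 11 thin filament genes, 3 genes of titin and the M-band, 15 genes of the Z-disc, the intercalated disc and the intermediate filaments, and 4 genes of sarcomere assembly and protein turnover. Each library held poly(A) RNA from 2 pooled hearts at E16.5, with 3 female ventral libraries (numbers 1 to 3), 3 female dorsal libraries (1 to 3), 4 male ventral libraries (4 to 7) and 3 male dorsal libraries (4 to 6). Every library carried the genotype label Tbx18Cre, a Cre driven by the epicardial gene Tbx18, although the study calls the hearts wild type, and no treatment was given. A further male library, number 7, is dorsal by its title and source name and ventral by its tissue field, and entered no main test. Hearts came from at least 3 litters, without a record of which pool held which litter, so the spread between libraries is that between pools.

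The sarcomere is the repeating unit of the myofibril, in which myosin thick filaments slide along actin thin filaments under the control of troponin and tropomyosin. Titin spans from the Z-disc, where thin filaments are anchored, to the M-band, where thick filaments are held together. In the fetal ventricle sarcomeres are built by cardiomyocytes, which lie directly under the epicardium, whereas epicardial cells and fibroblasts do not build them. This does not exclude RNA of single members in other cells, and which cells held the RNA was not measured. In RNA from whole tissue, fewer cardiomyocytes and less RNA of these genes per cardiomyocyte cannot be told apart.

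Promoter windows from RefSeq (GRCm38.p6), each reaching from 250 bases before to 50 bases after a gene's start, matched 34 of the 39 members. A CArG box, the site of serum response factor, was found on either strand in 6 of these 34 windows (17.6%), those of Myl3, Actc1, Acta1, Myom1, Ldb3 and Nebl, and in 1.81% of the 27025 genes with a window. A MEF2 site was found in 5 members (14.7%), Ttn, Mybpc3, Myoz2, Xirp2 and Synpo2l, and in 3.70% of all genes. The letters TATAAA were found, in either orientation, in 9 members (26.5%) and in 15.7% of all genes. The 250 upstream bases are shown for the long gene Ttn and the troponin gene Tnnt1, the members with the largest ventral excess in female hearts, for Smyd1, the member with the largest dorsal excess, and for Actc1, the most abundant actin gene. Capitals mark a MEF2 site in Ttn, TATAAA in Tnnt1, the reverse complement of TATAAA in Smyd1 and a CArG box in Actc1. The TATAAA of Actc1 falls in the 50 bases after the RefSeq start, which are not shown. Upstream here refers to the RefSeq start. The bases shown for Tnnt1, Smyd1 and Actc1 lie inside these genes as annotated in GENCODE M21, those of Smyd1 far inside chr6:71213940-71322233. A match of letters is a description of the sequence and no evidence of binding.
Ttn (chr2:76982548-76982797, minus strand): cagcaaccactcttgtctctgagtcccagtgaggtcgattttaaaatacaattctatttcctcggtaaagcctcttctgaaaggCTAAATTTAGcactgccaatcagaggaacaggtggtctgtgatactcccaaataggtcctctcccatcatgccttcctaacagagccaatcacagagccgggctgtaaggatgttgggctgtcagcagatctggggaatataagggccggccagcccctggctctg
Tnnt1 (chr7:4515976-4516225, minus strand): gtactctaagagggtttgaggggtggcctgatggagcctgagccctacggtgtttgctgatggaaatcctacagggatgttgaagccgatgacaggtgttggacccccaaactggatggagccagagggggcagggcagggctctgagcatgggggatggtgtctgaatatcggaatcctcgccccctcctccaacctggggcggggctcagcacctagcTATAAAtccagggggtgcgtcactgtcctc
Smyd1 (chr6:71262282-71262531, minus strand): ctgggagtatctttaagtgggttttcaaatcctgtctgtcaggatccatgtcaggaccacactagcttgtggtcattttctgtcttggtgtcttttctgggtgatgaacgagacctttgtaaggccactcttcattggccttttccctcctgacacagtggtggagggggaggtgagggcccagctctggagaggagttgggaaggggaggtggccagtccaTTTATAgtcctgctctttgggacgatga
Actc1 (chr2:114052876-114053125, minus strand): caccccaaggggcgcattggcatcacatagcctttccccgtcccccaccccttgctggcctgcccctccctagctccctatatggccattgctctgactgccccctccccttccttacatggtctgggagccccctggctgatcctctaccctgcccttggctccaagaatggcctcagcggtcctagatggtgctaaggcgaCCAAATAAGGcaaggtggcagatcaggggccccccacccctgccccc

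Reads on the listed genes numbered 13.9 to 19.4 M per library in female ventral, 19.8 to 20.8 M in female dorsal, 18.8 to 24.2 M in male ventral and 15.2 to 24.7 M in male dorsal libraries and 25.2 M in the unsettled library. Every female ventral library was thus shallower than every female dorsal one. Values are given as normalized CPM, reads scaled to the effective library size. Reads of the 39 members made up 2.77% of a library in male ventral 7 to 6.62% in male dorsal 4. Cardiomyocyte genes outside the sarcomere (13 of 13 listed) summed to 5361 to 8208 normalized CPM in female ventral, 8122 to 13263 in female dorsal, 4529 to 9174 in male ventral and 9767 to 11115 in male dorsal libraries. Epicardial markers (10 of 10 listed) ran the other way in female hearts, at 1751 to 2804 ventrally against 342 to 643 dorsally, with 2065 to 5995 ventrally and 1599 to 4280.0 dorsally in male hearts. Their RNA was thus detected in every group, with the lowest sums in the female dorsal libraries. A sum of 12483 set female dorsal 1 apart for atrial markers (5 of 6 listed), against 477 to 1995 in the 13 others. Skeletal muscle markers summed to 12.3 to 53.6, with Myog, Myod1, Chrna1, Myh3 and Tnnc2 not among the listed genes. Fibroblast markers summed to 11545 to 22103 ventrally and 2904 to 4547 dorsally in female hearts, and macrophage markers to 155 to 339 and 50.7 to 102. In male hearts fibroblast markers summed to 10925 to 25417 ventrally and 7251 to 12566 dorsally, and macrophage markers to 194 to 431 and 98.6 to 204. Smooth muscle markers (710 to 1069 ventrally and 981 to 1253 dorsally in female hearts, 514 to 1299 and 1012 to 1415 in male hearts) overlapped in both sexes. Blood endothelial markers overlapped in female hearts (281 to 552 and 383 to 524) and in male hearts (55.8 to 472 and 395 to 603). Male ventral 7, the library with the lowest share of member reads, also had the lowest blood endothelial sum, 55.8 against 281 to 603 in all other libraries. Whether the markers of other cell types had a part in the results on the members was not tested.

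Most members had a lower mean level in ventral than in dorsal libraries in each sex, although few of these differences passed the test in female hearts and none in male hearts. In female hearts 34 of 39 members had a log2 change (ventral minus dorsal, on log2 of the value plus 1) below 0, with a median of -0.40, where the median of all 14411 genes tested was 0.011. In male hearts 35 of 39 were below 0 with a median of -0.54, against 0.030 over 14917 genes. By limma with Benjamini-Hochberg adjustment over all genes and a threshold of 0.05, 8 members were called higher dorsally in female hearts, namely Smyd1, Unc45b, Trim63, Tcap, Ldb3, Tmod1, Smpx and Myoz2, which is 20.5% of the members beside 13.3% of all genes tested. Called higher ventrally were 3 members, Tnnt1, Ttn and Fhod3, 7.69% of the members beside 14.5% of all genes. In male hearts no member was called in either direction, as was no gene at all (0.00% in each direction, with 2083 genes and 15 members at an unadjusted p under 0.05). Quasi-likelihood tests in edgeR on the recovered reads called no gene in male hearts either. With the pool number as a replicate block, 76 of 14917 genes (0.509%) were called in male hearts, 1 of them a member, Tnnt1.

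When the same libraries of both sexes were fitted together with sex as a covariate, 12 members were called higher dorsally (30.8%, beside 9.06% of 15772 genes) and Tnnt1 alone was called higher ventrally (2.56%, beside 9.80%). The 12 were Smyd1, Unc45b, Tmod1, Trim63, Smpx, Ldb3, Myoz2, Actc1, Csrp3, Cryab, Tcap and Tnni1. Calls, changes and adjusted p given for both sexes are from this joint fit or its alternatives. They do not mean a call in each sex. Ventral and dorsal libraries did not overlap for 13 members lower ventrally and 3 higher ventrally in female hearts, where 21.6% and 23.2% of all genes did so, and for 13 members lower and 1 higher in male hearts, where 7.82% and 6.18% of all genes did so. The dorsal count in female hearts was 4 without female ventral 2 or female ventral 3, 5 without female dorsal 2, 13 without female dorsal 3 and 7 without the atrial-rich female dorsal 1. The ventral count was 1 without female ventral 2. Calls over all genes in female hearts, 4007 with every library, moved as well, to 2158 without female ventral 2, 2707 without female ventral 3, 2291 without female dorsal 2, 3190 without female dorsal 3 and 3226 without female dorsal 1. In both sexes the dorsal count was 7 without female ventral 3 or female dorsal 2, where the calls over all genes went from 2974 to 1739 and 1429, and the ventral count was 2 without male ventral 7, where 2444 genes were called. With the mean log2 value of the 13 cardiomyocyte genes outside the sarcomere as a covariate, chosen after the data had been seen and leaving 3 residual degrees of freedom in female hearts, no member was called dorsally in either fit and only Ttn was called ventrally in female hearts, while the calls over all genes fell from 4007 to 133 in female hearts and from 2974 to 0 in both sexes.

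**Figure D1:**
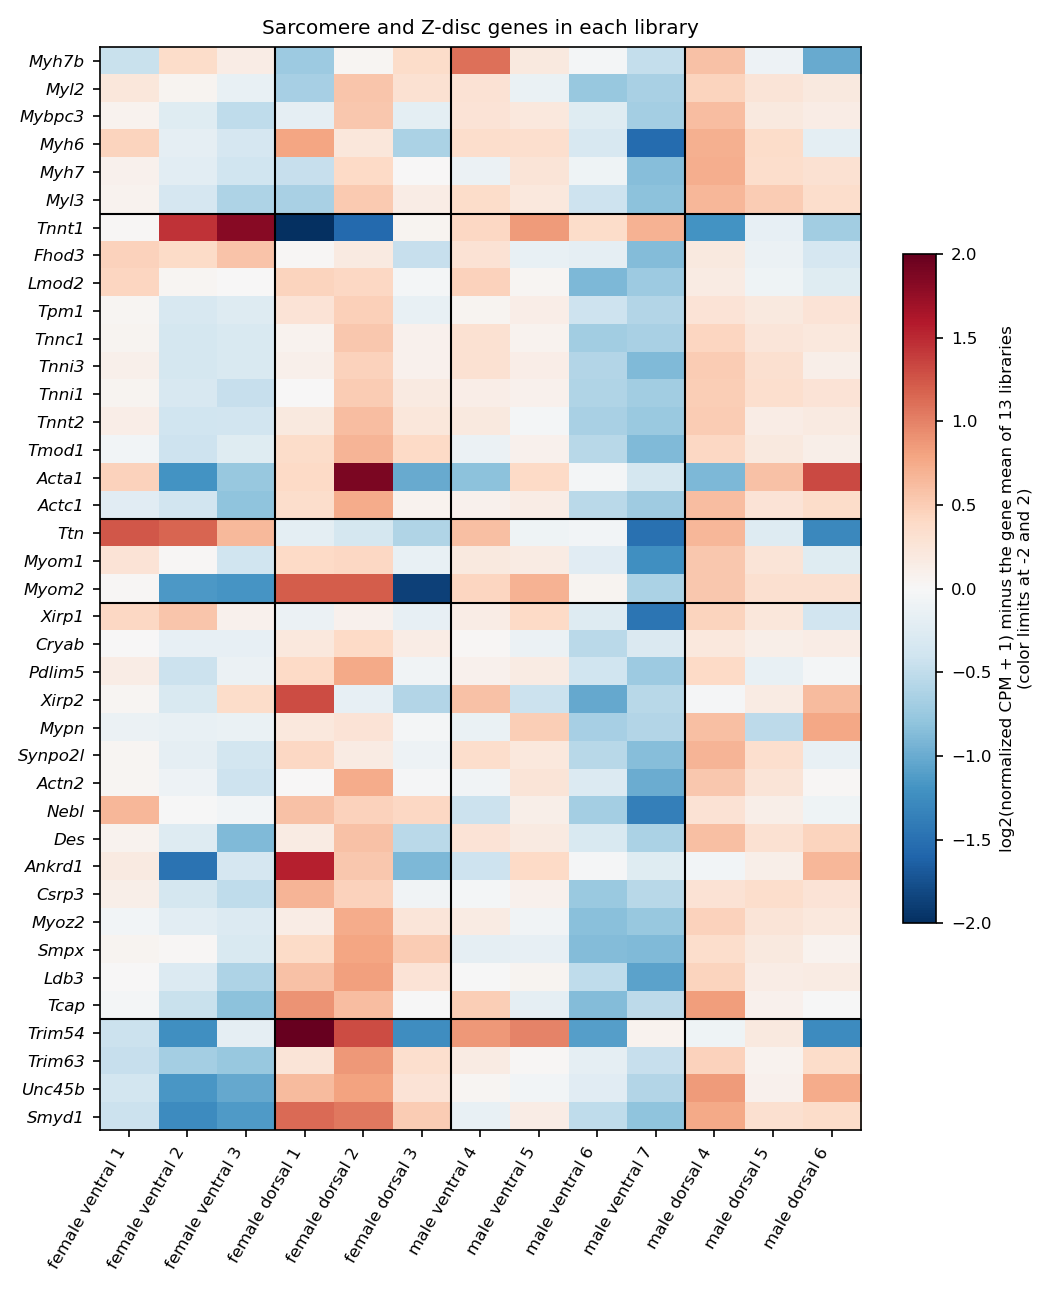
Each row is a member, ordered by role and by its change in both sexes, and each column is a library; color gives log2 of the normalized CPM plus 1 minus the gene's mean over the 13 libraries of settled region. Black lines part the groups and the roles, most rows are redder in dorsal than in ventral columns of the same sex, male ventral 6 and 7 are blue in nearly all rows, and Tnnt1 and Ttn stand against the pattern in female hearts.

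None of the 6 thick filament genes was called in the main fits of female hearts, male hearts or both sexes, nor for a difference between the sexes. With the GC and length trend over all genes removed, Myh7 (-0.77, adjusted p = 0.0252) and Mybpc3 (-0.57, adjusted p = 0.0418) were called higher dorsally in the fit of both sexes together. In that setting neither was called in female or in male hearts alone. Myh6, the alpha myosin heavy chain of the atria and the adult mouse ventricle, was at 2483, 1613 and 1453 normalized CPM in female ventral libraries 1 to 3 and at 3150.3, 2145 and 1181 in dorsal libraries 1 to 3. In male hearts it was at 2327, 2300.3, 1471 and 632 in ventral libraries 4 to 7 and at 2985, 2370.2 and 1595 in dorsal libraries 4 to 6. The highest female value was in the atrial-rich dorsal 1 and the lowest of all in male ventral 7, and the regions overlapped in both sexes. The log2 change of Myh6 was -0.15 ± 0.35 (± SE, here and for every change) in female hearts, or 0.18 without female dorsal 1, and -0.59 ± 0.43 in male hearts. Myh7, the beta heavy chain of the fetal ventricle, was at 6121, 4986 and 4402 ventrally and 4228, 7628 and 5822 dorsally in female hearts. In male hearts Myh7 was at 5319, 6957, 5454 and 3203 ventrally and 9612, 7434 and 7174 dorsally, and there every ventral library lay below every dorsal one. Its change was -0.16 ± 0.32 and -0.67 ± 0.31 (adjusted p = 0.374 in male hearts).

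The other thick filament genes are given by their log2 changes. Myl2, the regulatory light chain of the ventricle, was at -0.023 ± 0.31 in female and -0.61 ± 0.27 in male hearts, and Myl3, the essential light chain, at -0.30 ± 0.32 and -0.67 ± 0.30. Both had their lowest female dorsal value in the atrial-rich library, at 1343 for Myl2 and 1635 for Myl3. Mybpc3, the cardiac myosin binding protein C, was at -0.29 ± 0.23 and -0.43 ± 0.24. Myh7b, a further myosin heavy chain, was expressed at only 15.5 to 69.6 normalized CPM and was the thick filament gene above 0 in both sexes, at 0.14 ± 0.30 and 0.37 ± 0.41, with overlapping regions.

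Among the 11 thin filament genes Tnnt1, the slow skeletal troponin T gene, was the 1 with higher ventral levels in both sexes. It was at 196, 525 and 688 in female ventral libraries 1 to 3 and at 45.1, 65.4 and 201 in female dorsal libraries 1 to 3. Female ventral 1 lay just below female dorsal 3, so the regions overlapped. In male hearts it was at 257, 350.2, 249 and 313 ventrally and 84.0, 173 and 118 dorsally, with no overlap. The log2 change was 2.28 ± 0.55 in female hearts (4.86-fold, limma adjusted p = 0.0146), 1.27 ± 0.23 in male hearts (2.40-fold, adjusted p = 0.260) and 1.74 ± 0.35 in both sexes (3.34-fold, adjusted p = 0.00782). With the pool number as a replicate block Tnnt1 was also called in male hearts (1.23, adjusted p = 0.00225), the 1 member called there. Male ventral 7 has no partner in the block and carries no weight in it, and the change without that library and without the block was also 1.23 (adjusted p = 0.504). The female call was lost without female ventral 2 or female ventral 3. With the cardiomyocyte covariate the change was 0.36 in female, 1.16 in male and 1.14 in both sexes, with no call.

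Tnnt1 lies at chr7:4504570-4516382 on the minus strand in GENCODE M21 (GRCm38), 1922 bases from Tnni3, which encodes the cardiac troponin I, at chr7:4518305-4524229 on the minus strand. Tnni3 was at 2621, 1903 and 1967 ventrally and 2614, 3360.4 and 2577 dorsally in female hearts, and at 3003, 2687, 1631 and 1328 ventrally and 3464, 3045 and 2657 dorsally in male hearts. Unlike its neighbour it was below 0 in both sexes, at -0.40 ± 0.23 and -0.57 ± 0.30, and was not called. The pair Tnni1, the slow skeletal troponin I of the fetal heart, and Tnnt2, the cardiac troponin T, are 25364 bases apart on chromosome 1. Both had changes below 0 in female and male hearts, Tnni1 of -0.47 ± 0.26 and -0.64 ± 0.27 and Tnnt2 of -0.56 ± 0.33 and -0.59 ± 0.31. Tnni1 was called in both sexes together (-0.56 ± 0.18, adjusted p = 0.0408), a call lost with the replicate block (adjusted p = 0.0791) and kept under 13 of 25 alternatives with adjusted p from 0.0151 to 0.611, and Tnnt2 was not (-0.57 ± 0.21, adjusted p = 0.0623).

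Actc1, the cardiac alpha actin, was at 5811, 5207 and 3873 in female ventral and 8642, 11322 and 7111 in female dorsal libraries. In male hearts it was at 7156, 7537, 4636 and 4149.9 ventrally and 10414, 8139 and 8728 dorsally. Regions did not overlap in either sex, and the change was -0.86 ± 0.33 (adjusted p = 0.0774), -0.67 ± 0.31 (adjusted p = 0.364) and, in both sexes together, -0.76 ± 0.21 (1.69-fold lower ventrally, adjusted p = 0.0219), a call lost without female ventral 3 or female dorsal 2. Acta1, the skeletal alpha actin, varied widely among pools of the same group, at 185, 58.2 and 78.7 ventrally and 178, 498 and 66.5 dorsally in female hearts and 75.4, 177, 130.2 and 105 and 71.3, 203 and 336 in male hearts. Its changes of -0.93 ± 0.63 and -0.54 ± 0.46 had large errors.

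Tnnc1, the troponin C of heart and slow muscle, had a log2 change of -0.43 ± 0.23 in female and -0.54 ± 0.27 in male hearts, and Tpm1, an alpha tropomyosin, one of -0.38 ± 0.25 and -0.45 ± 0.24. Tmod1, the cap of the pointed end of the thin filament, was at 261, 204 and 229 ventrally and 351, 434 and 359 dorsally in female hearts. It was at 251, 287, 185 and 147 and 361, 311 and 293 in male hearts, so that the regions parted in both sexes. It was called in female hearts (-0.72 ± 0.15, 1.65-fold lower ventrally, adjusted p = 0.00774) and in both sexes (-0.66 ± 0.14, adjusted p = 0.00997). Lmod2, a nucleator of thin filaments, was not called, at -0.11 ± 0.19 and -0.23 ± 0.31. Fhod3, a formin needed for thin filament maintenance, was at 69.4, 65.3 and 74.7 ventrally and 51.1, 57.0 and 36.2 dorsally in female hearts, without overlap, and was called at 0.55 ± 0.18 (adjusted p = 0.0484). That call was kept under 4 of 16 alternatives, with adjusted p from 0.0228 to 0.399, and in male hearts the change was -0.14 ± 0.26.

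**Figure D2:**
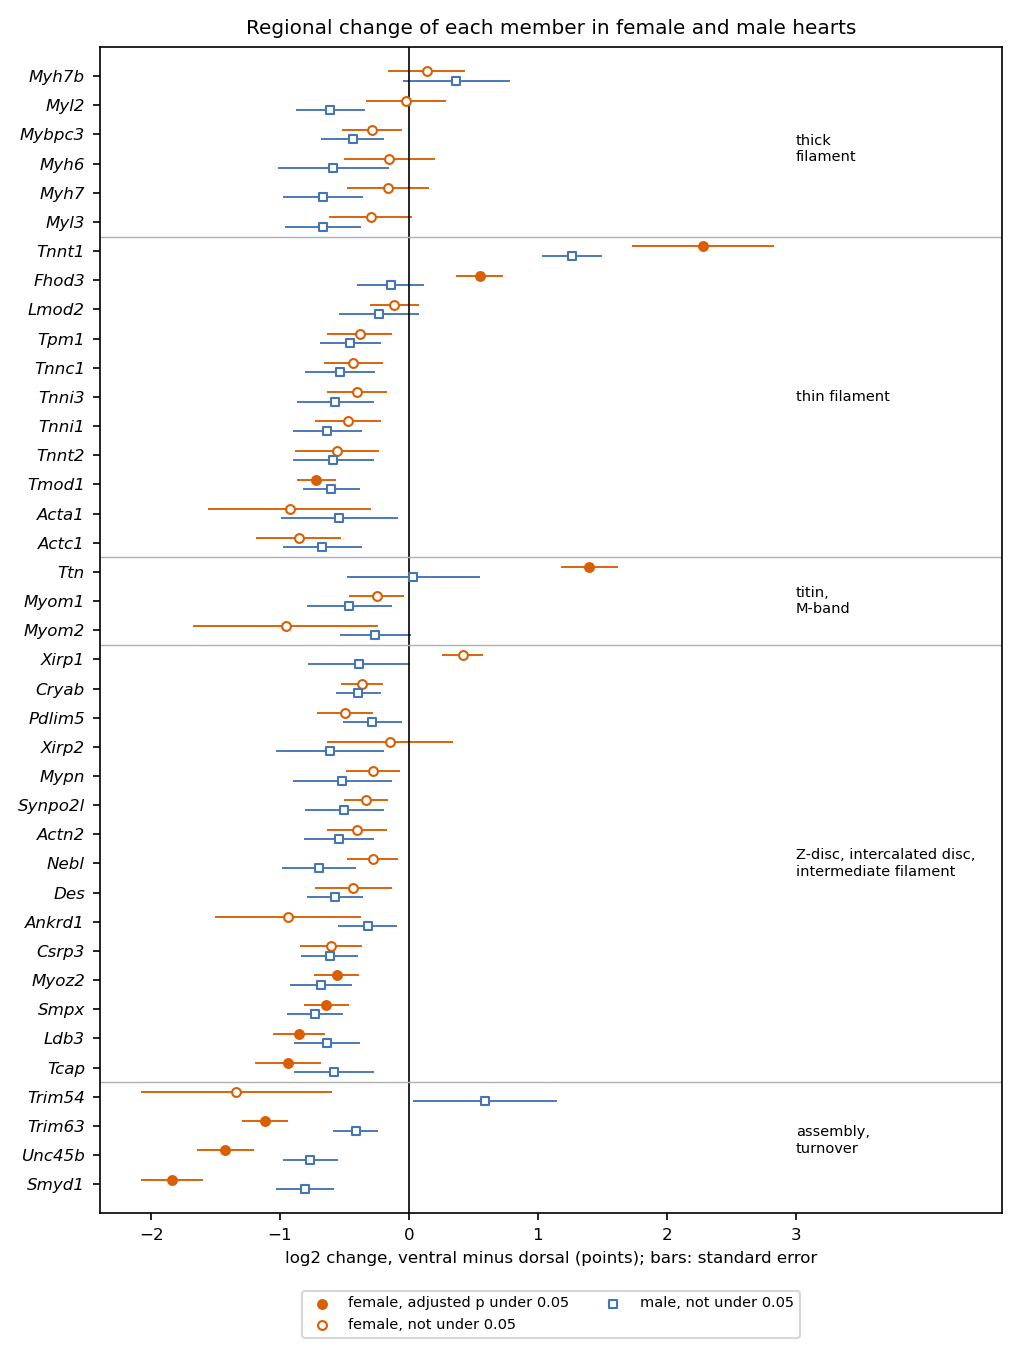
Points give the log2 change, ventral minus dorsal, of each member in female (circles) and male (squares) hearts with its standard error as a bar, and filled points have an adjusted p under 0.05. Most points lie between -1 and 0 in both sexes, Tnnt1 lies above 1 in both, Ttn does so in female hearts, and Smyd1, Unc45b and Trim63 lie lowest among the filled points.

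Titin, encoded by Ttn at chr2:76703980-76982547 on the minus strand, acts as the spring and ruler of the sarcomere and has by far the longest transcript of the set, 106824 bases. In female ventral libraries Ttn was at 2755, 2604 and 1809.6 normalized CPM and in female dorsal libraries at 1016, 907 and 764, so every ventral library exceeded every dorsal one. In male hearts it was at 1762, 1088, 1119 and 409.7 ventrally and 1839, 968 and 476 dorsally, with wide overlap. The change was 1.40 ± 0.22 in female hearts (2.64-fold, adjusted p = 0.00245), 0.034 ± 0.51 in male hearts (adjusted p = 0.985) and 0.67 ± 0.36 in both sexes (adjusted p = 0.197). Ttn was called in the fit of both sexes together without male ventral 7 (0.92, adjusted p = 0.0419) and with the replicate block (0.92, adjusted p = 0.0267). The block gives that library no weight and called 14.2% of all genes. In male hearts alone Ttn was at 0.45 in these settings and was not called (limma adjusted p = 0.734 without the library and 0.306 with the block). The female call held with each of the 6 libraries left out and with the cardiomyocyte covariate (1.85, adjusted p = 0.0283).

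The 2 M-band genes were not called. Myom1, myomesin, had a log2 change of -0.25 ± 0.21 in female and -0.46 ± 0.33 in male hearts. Myom2, a further myomesin of the M-band, was at 51.9, 22.6 and 22.2 ventrally and 121, 120.4 and 13.4 dorsally in female hearts, high in dorsal 1 and 2 and low in dorsal 3, and its changes were -0.96 ± 0.72 and -0.26 ± 0.27. Titin was also set against Actn2, the alpha-actinin to which it binds in the Z-disc. Normalized CPM of Ttn divided by that of Actn2 was 3.41, 3.53 and 3.04 in female ventral libraries 1 to 3 and 1.28, 0.683 and 0.987 in female dorsal libraries 1 to 3. It was 2.35, 1.15, 1.72 and 1.03 in male ventral and 1.61, 1.03 and 0.591 in male dorsal libraries. Regions thus parted in this ratio in female hearts and overlapped in male hearts.

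Whether long transcripts moved apart from short ones was described by the longest protein-coding transcript of each member. The 13 members of at least 5000 bases had a median log2 change of -0.16 in female hearts and the 17 members under 2000 bases one of -0.56, a difference of 0.40. In male hearts the medians were -0.46 and -0.58, a difference of 0.12, and in both sexes -0.38 and -0.56, a difference of 0.17. The female difference fell to 0.15 without female dorsal 2 and to 0.16 after the trend on GC content and length over all genes had been removed from each library. Of the 5 members above 0 in female hearts, 4 were long, namely Ttn, Fhod3, Xirp1 and Myh7b, and Tnnt1, of 1059 bases, was the exception. The long members spread widely among themselves in female hearts, as Xirp2, of 11979 bases, was at -0.15, Nebl, of 8079 bases, at -0.28, Xirp1, of 5839 bases, at 0.42 and Ldb3, of 5119 bases, at -0.85. Across the 39 members, which share the same libraries, Spearman's rho of length and change was 0.34 in female and 0.15 in male hearts.

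The same contrast was described over all genes. Over all genes tested in female hearts, the median change was 0.60 for the 340 genes with a transcript of at least 10000 bases, 0.27 for the 2614 genes of 5000 to 10000 bases and between -0.18 and 0.18 in the shorter ranges. In male hearts the corresponding medians were 0.16 and 0.095. Ttn lay above 88.5% of the 340 longest genes in female hearts and above 37.5% of 349 in male hearts, and above 95.2% and 50.4% of all genes tested. After the trend on GC content and length had been removed, the change of Ttn was 0.42 in female hearts (adjusted p = 0.114, and 0.137 with the block) and it lost its call. In male hearts it turned to -0.28. Fhod3 lost its call in female hearts under the same correction (0.24, adjusted p = 0.381), while Smyd1, Unc45b, Trim63 and Tnnt1 kept theirs.

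**Figure D3:**
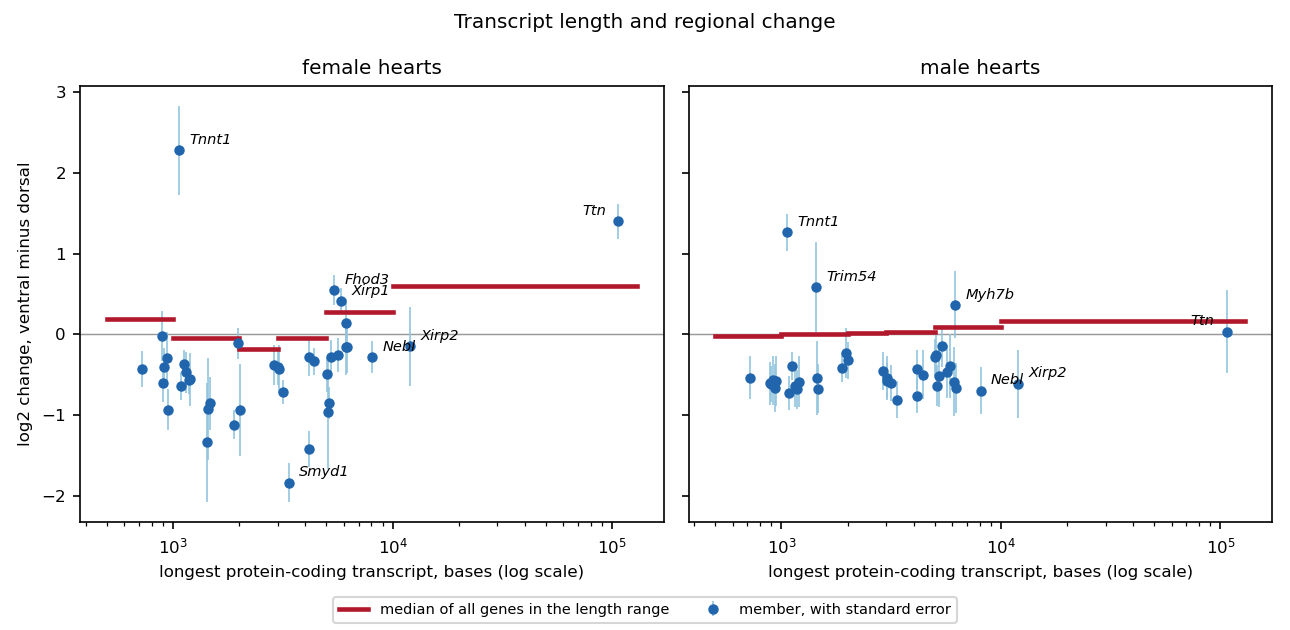
Each point is a member, placed by the length of its longest protein-coding transcript on a log axis and by its log2 change, ventral minus dorsal, with its standard error, in female and male hearts. Red lines give the median change of all genes in 6 ranges of length, which reaches 0.60 above 10000 bases in female hearts and 0.16 in male hearts; Ttn, at the far right, lies above the line in female hearts and near 0 in male hearts.

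Of the 15 genes of the Z-disc, the intercalated disc and the intermediate filaments, 14 were below 0 in female hearts and all 15 in male hearts and in both sexes together. Calls were made for 4 of the 15 in female hearts, where 13.3% of all genes were called dorsally, and for 6 of the 15 in both sexes, where 9.06% were, each of them dorsal. Ldb3, the PDZ and LIM domain protein cypher, was at 449, 370.00 and 291 ventrally and 672, 789 and 541 dorsally in female hearts and at 445, 463, 313 and 213 and 608, 496 and 502 in male hearts. It did not overlap in either sex and had changes of -0.85 ± 0.20 (adjusted p = 0.0129) and -0.64 ± 0.25 (adjusted p = 0.320). The female call of Ldb3 was lost without female ventral 2 or female ventral 3. Smpx, a small muscle protein of the costamere, was at 537, 522 and 417 against 674, 895 and 736 in female hearts and 455, 462, 283 and 279.6 against 659.6, 594 and 539 in male hearts. It too parted in both sexes, with changes of -0.64 ± 0.17 (adjusted p = 0.0223) and -0.73 ± 0.22 (adjusted p = 0.285). Its female call was lost without female ventral 2, female ventral 3 or female dorsal 2.

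Myoz2, the calcineurin-binding protein calsarcin of heart and slow muscle, was lower ventrally without overlap in both sexes, at 174 to 203 against 233 to 355 in female and 118 to 237 against 243 to 289.8 in male hearts. Its changes were -0.56 ± 0.17 (adjusted p = 0.0373) and -0.68 ± 0.24, and the female call was lost without female ventral 2, female ventral 3, female dorsal 2 or female dorsal 3. Tcap, telethonin, which caps titin at the Z-disc, was at 134, 101 and 77.4 ventrally and 257, 213 and 136 dorsally in female hearts and changed by -0.94 ± 0.25 (adjusted p = 0.0227). It lost that call without female ventral 2, female ventral 3, female dorsal 1 or female dorsal 2. Thus the cap of titin and titin itself moved in opposite directions in female hearts. With the GC and length trend removed, Ttn was at 0.42 and no longer called (limma adjusted p = 0.114), while Tcap was at -1.25 (limma adjusted p = 0.0109). Csrp3, the muscle LIM protein, was at 1129, 817 and 735 ventrally and 1667, 1433 and 997 dorsally in female hearts and at 1022, 1115, 623 and 714 and 1283, 1338 and 1256 in male hearts, where the regions parted. It was called in both sexes together (-0.61 ± 0.17, adjusted p = 0.0228), as was Cryab, the small heat shock protein alphaB-crystallin that binds desmin and titin (-0.38 ± 0.11, adjusted p = 0.0300). Cryab was not called with the replicate block (adjusted p = 0.0681) and kept its call under 16 of 25 alternatives. The call of Csrp3 was lost without female ventral 2, female ventral 3 or female dorsal 2.

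The other Z-disc members were not called. Actn2 had a log2 change of -0.40 ± 0.23 in female and -0.54 ± 0.27 in male hearts, Des, the muscle intermediate filament desmin, of -0.43 ± 0.30 and -0.57 ± 0.22, and Nebl, nebulette, of -0.28 ± 0.20 and -0.70 ± 0.29. Pdlim5, an enigma family protein, was at -0.50 ± 0.22 and -0.28 ± 0.23, Mypn, myopalladin, at -0.28 ± 0.21 and -0.52 ± 0.38, and Synpo2l at -0.33 ± 0.17 and -0.50 ± 0.31. Ankrd1, a stretch-responsive ankyrin repeat protein, ranged from 209.9 in female ventral 2 to 1722 in the atrial-rich female dorsal 1, with changes of -0.94 ± 0.57 and -0.32 ± 0.23. Xirp1 and Xirp2 encode xin repeat proteins of the intercalated disc. Xirp1 was at 73.6, 81.2 and 58.8 ventrally and 50.9, 58.4 and 49.0 dorsally in female hearts, higher ventrally without overlap (0.42 ± 0.16, adjusted p = 0.0825), and at -0.39 ± 0.39 in male hearts. Xirp2 was barely detected, with 0 to 89 reads per library, and was at -0.15 ± 0.49 and -0.61 ± 0.42.

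Genes of assembly and turnover included the members with the largest called dorsal changes. Smyd1, a muscle methyltransferase required for myofibril assembly, at chr6:71213940-71322233 on the minus strand, was at 182, 102 and 112 in female ventral libraries 1 to 3 and at 539, 512 and 349 in female dorsal libraries 1 to 3. In male hearts it was at 222, 273, 172 and 140.3 ventrally and 415, 305 and 318 dorsally. Every ventral library lay below every dorsal library of its sex. The change was -1.84 ± 0.24 in female hearts (3.57-fold lower ventrally, adjusted p = 0.00104), -0.81 ± 0.22 in male hearts (1.75-fold, adjusted p = 0.285) and -1.29 ± 0.22 in both sexes (2.44-fold, adjusted p = 0.00678).

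Unc45b, the myosin chaperone with which Smyd1 acts, was at 144, 81.6 and 90.4 ventrally and 288, 325 and 224 dorsally in female hearts, and at 189.6, 179, 158 and 123 and 335, 196 and 309.7 in male hearts, again without overlap. Its change was -1.42 ± 0.22 in female hearts (2.68-fold lower ventrally, adjusted p = 0.00230), -0.76 ± 0.22 in male hearts (adjusted p = 0.285) and -1.07 ± 0.19 in both sexes (adjusted p = 0.00678). Trim63, the muscle ubiquitin ligase MuRF1, was at 135, 115 and 109 ventrally and 223, 339 and 233 dorsally in female hearts and at 209, 188, 164 and 135 and 257, 195 and 239 in male hearts, where male ventral 4 reached into the dorsal range. Its change was -1.12 ± 0.18 (2.17-fold lower ventrally, adjusted p = 0.00253) in female and -0.41 ± 0.18 (adjusted p = 0.341) in male hearts. The calls of these 3 genes in female hearts held with each of the 6 libraries left out. With the cardiomyocyte covariate the female changes were -1.10 for Smyd1, -0.72 for Unc45b and -0.64 for Trim63, and none was called (adjusted p = 0.106, 0.228 and 0.251). Trim54, the related ligase MuRF3, was near the floor of detection, with 0 to 206 reads per library and the most in the atrial-rich female dorsal 1, and its changes of -1.34 ± 0.74 and 0.59 ± 0.56 were not called.

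**Figure D4:**
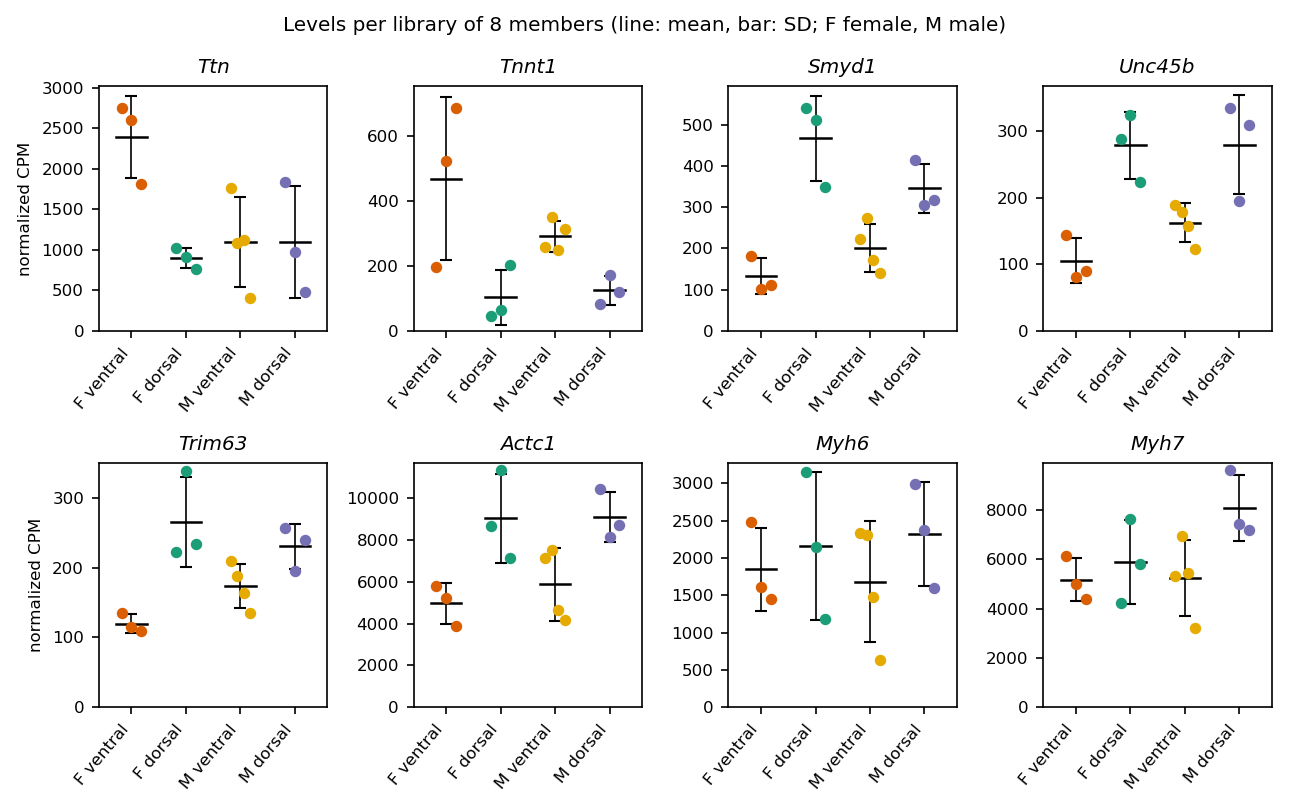
Normalized CPM per library of 8 members in the 4 groups, with the group mean as a line and the SD as a bar on axes that start at 0. Ttn and Tnnt1 are higher in female ventral than in female dorsal libraries on average, Smyd1, Unc45b, Trim63 and Actc1 are lower there, Ttn overlaps between the male groups, and Myh6 spreads widely within each group.

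The regional change was next compared between the sexes. No member was called for the female minus male difference (0 of 39), where 0.615% of 15772 genes had a more ventral and 2.12% a more dorsal change in female hearts. An unadjusted p under 0.05 was found for Smyd1 (-1.03 ± 0.36, limma adjusted p = 0.169) and Trim63 (-0.70 ± 0.26, limma adjusted p = 0.200). Such a p was found for 2428 of all 15772 genes. Ttn, with the widest gap between its female and male values among the well-detected members, had a difference of 1.37 ± 0.65 (limma adjusted p = 0.333), so that its regional change was not shown to differ between the sexes. With the replicate block, Smyd1 was called for a more dorsal change in female hearts (-1.19 ± 0.26, adjusted p = 0.0168) and Tnnt1 for a more ventral one (1.05 ± 0.29, adjusted p = 0.0498). The same blocked fit, in which male ventral 7 has no weight, called 804 of 15772 genes (5.10%), so 2 of 39 members is close to the share of all genes.

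Between the sexes, with region as a covariate, no member was called either, where 4.40% of genes were called higher in male and 6.54% higher in female hearts, and edgeR called none of them. The member with the smallest p was Nebl, lower in male hearts by -0.60 ± 0.20 on the log2 scale (limma adjusted p = 0.0647), followed by Smpx (-0.40 ± 0.14, limma adjusted p = 0.0856). These 2 were the only members of 39 with an unadjusted p under 0.05, which 4030 of 15772 genes had. Nebl was called without male ventral 5 (-0.70, adjusted p = 0.0257), and Nebl and Smpx both were with the unsettled library taken as dorsal (-0.60 and -0.45, adjusted p = 0.0430 and 0.0457). Ttn was at -0.64 ± 0.36 (limma adjusted p = 0.283), and after removal of the GC and length trend at -0.81 (adjusted p = 0.0350).

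Ratios between pairs of isoform genes were taken within each library. Normalized CPM of Myh7 over Myh6 was 2.47, 3.09 and 3.03 in female ventral and 1.34, 3.56 and 4.93 in female dorsal libraries, the lowest being the atrial-rich female dorsal 1. It was 2.29, 3.02, 3.71 and 5.07 in male ventral and 3.22, 3.14 and 4.50 in male dorsal libraries, so no regional order was seen in either sex. The unsettled male library 7 stood out at 10.7. Tnni1 over Tnni3, the fetal over the adult troponin I, was nearly constant, from 1.18 in male ventral 4 to 1.50 in male ventral 7. Tnnt1 over Tnnt2 was 0.0246, 0.0955 and 0.124 in female ventral libraries and 0.00546, 0.00587 and 0.0238 in female dorsal libraries. It was 0.0310, 0.0498, 0.0538 and 0.0726 in male ventral and 0.00817, 0.0216 and 0.0145 in male dorsal libraries. In each sex every ventral library exceeded every dorsal library in this ratio, although the unsettled library, at 0.0264, lay between the male groups. Acta1 over Actc1 ranged from 0.00685 to 0.0440 with overlap in both sexes, and Myh7b over Myh7 from 0.00216 to 0.0131.

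Per kilobase of longest transcript, the mean level over the 13 libraries ran from 6258 normalized CPM per kb for Tnnt2 and 4842 for Actc1 to 1.54 for Trim54 and 0.106 for Xirp2. After Tnnt2 and Actc1 came the small thin filament and light chain genes Tnnc1, Tnni1, Myl3, Tnni3 and Myl2, between 2482 and 2996. Myh7 was at 967 and Myh6 at 323. Smyd1, Unc45b and Trim63 were at 83.3, 48.9 and 104. Ttn ranked 32 of 39 by this measure, at 12.6, with a mean of 1348 normalized CPM before division by length. Reads may be shared with other genes for some members, as 16.9% of the stretches of 60 bases in Myh6 and 17.04% of those in Myh7 also occur in other genes, including each other, 31.2% of those in Tmod1 occur in Tstd2 and others, 17.04% in Trim54 and 12.6% in Cryab.

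Further sarcomere genes outside the set were counted in the same way. Of 53 such genes listed with earlier results known, 47 were in the table. In female hearts 12 of 46 tested (26.1%, beside 13.3% of all genes) were called higher dorsally and 4 (8.70%, beside 14.5%) ventrally, with a median of -0.40. In both sexes 12 of 47 (25.5%, beside 9.06%) were called dorsally and 3 (6.38%, beside 9.80%) ventrally, with a median of -0.36, and in male hearts none was called (11 with an unadjusted p under 0.05). Among the largest called changes in both sexes were those of Synm, an intermediate filament protein, at 1.21 ± 0.34, of Cap2, a cyclase-associated actin regulator, at -1.15 ± 0.21, of Trim55, the ligase MuRF2, at -0.90 ± 0.19 and of Mylk3, the cardiac myosin light chain kinase, at -0.87 ± 0.21. Trim55 thus moved dorsally with Trim63. Trim55 was at 239, 135 and 209 ventrally and 349, 494 and 398 dorsally in female hearts, without overlap.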

How the data were processed

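RNA of 14 libraries was measured by single reads of 60 bases. According to the study's methods, the authors trimmed adapters (Cutadapt), discarded short reads, quantified genes with RSEM (1.3.1 in the submitters' processing notes) on the GRCm38 transcriptome, applied the normalization of limma, and filtered genes by a minimum of 1 CPM in 3 or more samples. Strand of counting is not given in the sources used here. The deposited signal is a normalized CPM per gene, from which whole reads were recovered for 100% of values (tolerance 0.02 reads). No column of another sample was present.

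Linear models were fitted in limma 3.58.1 under R 4.3.3 (lmFit and eBayes with trend, two-sided tests) on log2 of the value plus 1, over genes at 1 or more in at least 3 libraries of the fit, with Benjamini-Hochberg adjustment over all genes. Fold changes are on that scale, which understates changes of low genes. Each result was recomputed with a pseudocount of 0.1, without a filter, with a mean of at least 10, median of ratios, quantile normalization, edgeR 4.0.16 on recovered reads, removal of the GC and length trend (splines with 5 degrees of freedom), each library left out, the replicate block, and the unsettled library as dorsal or ventral. A cardiomyocyte covariate was added after seeing the data. Pool numbers are shared by a ventral and a dorsal library of a sex, and the deviations of such pairs from their group means correlated at 0.187, 0.169, 0.270, 0.427, 0.175 and 0.351 over 15772 genes, so the numbers were taken as pairs in the block. The labels do not say that such libraries came from the same hearts, and pairs of unlike number are not given for comparison. The pairing is thus an assumption on which the calls with the block rest. Male ventral 7 has no partner and carries no weight in the block, so male and both-sex changes with the block equal those without that library. On simulated reads with log2 changes of 2, the tests found 85% of 100 changed genes in female, 85% in male and 97% in both-sex comparisons, and with changes of 1, 25%, 19% and 60%, with 15, 9 and 10 unchanged genes called. Only 100 genes of each size were changed in a simulation, whereas 4007 of 14411 genes were called in female hearts. Whether these shares hold with another number of changed genes was not tested. Nor was it tested whether these shares hold for libraries that differ in cell content, as the marker sums did here. They therefore do not tell which changes the male fit, in which no gene was called, could have missed. Lengths and positions are from GENCODE M21 and promoters from RefSeq. All members are named; of the other sarcomere genes, the 5 with the largest change among those called in both sexes, of which 1 is not reported here. Members and lists were chosen with earlier results of these data known.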

Additional observations from a re-analysis of the deposited data

Results flagged for a closer look

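For 2 members the regional change differed between female and male hearts in the test of the difference itself when the pool number was kept as a block. Smyd1 had a more dorsal change in female hearts, by -1.19 on the log2 scale, and Tnnt1 a more ventral one, by 1.05. Sex and the set of pools cannot be told apart here, as no pool number is shared by the sexes. Without the block the differences were -1.03 (limma adjusted p = 0.169) and 1.02 (limma adjusted p = 0.503), and neither was called. The blocked fit called 804 of 15772 genes (5.10%), close to the share of the 39 members that 2 makes, and gave no weight to the unpaired male ventral 7. With the block and the GC and length trend removed, which called 741 genes, Smyd1 was still called (-1.07, adjusted p = 0.0321) and Tnnt1 was not. In the male ventral group, the 1 group with 4 libraries, the gap of the most extreme library over the range was judged for each of the 39 members alone. No library was singled out. With 4 values per member this check can hardly single out a library, and it cannot see a shift shared by many members. Male ventral 7 had the lowest median deviation over the members of all libraries, at -0.71 on the log2 scale, and the lowest share of member reads, 2.77%.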

How the results depend on the processing

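Over the alternatives, 2102 of 2328 values of single members kept their direction and their side of the threshold, 85 lost a call, 61 gained one and 80 changed sign. The 2328 values include 739 of the male fit, where the main fit had no call to lose, and those of members not called in the other fits. The share that stayed the same therefore does not tell how well the calls held. The male fit called no member under any alternative but the block, which called Tnnt1, with and without the GC and length trend removed (1 member higher ventrally in each). In female hearts, calls higher dorsally were 8 and rose to 13 with quantile normalization, 13 with the GC and length trend removed and 14 with the block as well, and fell to 0 with the cardiomyocyte covariate; calls higher ventrally were 3 and fell to 1 in each of the last 3 settings. Calls over all 14411 genes, in either direction, were 4007 in the main fit and 3835 with quantile normalization. They were 3509 with the trend removed, 3799 with the block as well and 133 with the covariate. With single libraries left out the member calls were 4 to 13 dorsally and 1 to 3 ventrally, where 2158 to 3845 genes were called. In both sexes, dorsal calls were 12, and 20 with the GC and length trend removed, 7 to 16 with single libraries left out and 0 with the covariate; ventral calls were 1, and 2 with the block, 1 to 2 with libraries left out and 0 with the covariate. Over all genes in both sexes, 2974 of 15772 were called in the main fit, 2754 with the trend removed, 2234 with the block and 0 with the covariate. With single libraries left out 1429 to 3646 genes were called. The female minus male difference was called for 1 member in each direction with the block, where 804 genes were called. With the block and the trend removed it was called for 1 member (more dorsal), where 741 genes were called. Higher levels in females were called for 1 member with the trend removed, for 2 with the unsettled library as dorsal and for 0 to 1 with libraries left out. In these settings 1334, 2048 and 1303 to 1859 genes differed between the sexes in either direction, beside 1726 in the main fit. The long minus short difference in female hearts was 0.40, and 0.16 with the trend removed, with or without the block, and 0.15 to 0.40 with libraries left out; in both sexes it was 0.17, and 0.45 with the covariate. The block changed no other call than those given here and in the report, apart from Csrp3 in female hearts, which it added (adjusted p = 0.0417), and Tnni1 and Cryab in both sexes, which it dropped (adjusted p = 0.0791 and 0.0681).

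Signs changed as follows, on the log2 scale. With the GC and length trend removed they turned in female hearts for Myh7b to -0.42, Xirp1 to -0.098 and Lmod2 to 0.054 (the same with the block), in male hearts for Ttn to -0.28 (with the block to -0.00021), and in both sexes for Myh7b to -0.12 and Fhod3 to -0.026 (with the block, Myh7b to -0.035). Xirp1 turned in both sexes to 0.047 with edgeR, 0.057 with quantile normalization and 0.21 with the block. Fhod3 turned in male hearts to 0.072 with the block. Both block values equal those without male ventral 7, the unpaired library that the block gives no weight. With the unsettled library as dorsal, signs turned in male hearts for Myom2 to 0.22 and Fhod3 to 0.018. With the cardiomyocyte covariate 22 members turned in female hearts, Myh6 to 0.76, Myh7 to 0.34, Myh7b to -0.41, Myl2 to 0.34, Myl3 to 0.32, Tnni1 to 0.013, Tnni3 to 0.068, Tnnc1 to 0.049, Tpm1 to 0.15, Acta1 to 1.48, Actn2 to 0.28, Mybpc3 to 0.45, Myom1 to 0.42, Myom2 to 1.46, Csrp3 to 0.036, Nebl to 0.17, Ankrd1 to 0.25, Des to 0.71, Pdlim5 to 0.15, Lmod2 to 0.39, Synpo2l to 0.031 and Trim54 to 0.024. In male hearts 8 did so, Myh6 to 0.19, Myom1 to 0.13, Myom2 to 0.19, Xirp1 to 0.30, Pdlim5 to 0.091, Lmod2 to 0.22, Synpo2l to 0.026 and Fhod3 to 0.27. In both sexes 12 did so, Myh6 to 0.45, Myl3 to 0.0065, Actn2 to 0.036, Mybpc3 to 0.13, Myom1 to 0.28, Myom2 to 0.39, Des to 0.041, Xirp1 to 0.59, Pdlim5 to 0.097, Lmod2 to 0.31, Synpo2l to 0.096 and Trim54 to 0.54. With single libraries left out the sign changed within these ranges: in female hearts Myh6 -0.53 to 0.18, Myh7 -0.38 to 0.046, Myh7b -0.17 to 0.38, Myl2 -0.39 to 0.22 and Xirp2 -0.54 to 0.018, in male hearts Fhod3 -0.31 to 0.072, Myh7b -0.047 to 0.75 and Ttn -0.46 to 0.51, and in both sexes Trim54 -0.64 to 0.080 and Xirp1 -0.10 to 0.21. The cause was not tested. Depth limits Xirp2 and Trim54, which had no reads in some libraries, and 3 or 4 pools in a group limit all calls.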
